A study of Mus musculus with 6 samples.

Results

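Genes whose proteins carry long-chain fatty acids across the cell membrane or hold them in the cytosol were compared between livers of control mice and of mice labelled as liver-specific Sirt1 knockouts. The 10 genes were chosen by name: the scavenger receptor gene Cd36, the fatty acid transport protein genes Slc27a1, Slc27a2, Slc27a4 and Slc27a5, and the fatty acid binding protein genes Fabp1, Fabp2, Fabp4, Fabp5 and Fabp7. They have 17 probes among the 41174 probes of a 1-colour whole mouse array, which carries 27962 gene names. Of these, 15 probes of 9 genes were bright enough to be tested, among 23591 tested probes in all.

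The animals were male mice of 10 weeks on a 95% C57BL/6 background, fed chow without restriction and killed at 4 pm. The groups are 6 Lox control mice and 6 mice with a liver-specific knockout of Sirt1, called LKO here. RNA of 2 mice was pooled for each replicate, so each group has 3 pools, and 500 ng of each pool was labelled with Cy3 and hybridised to 1 array. The sources used here name neither the driver of the Cre recombinase nor the exons it removes. The series was set up to look at functions of the nuclear receptor PPAR-alpha under normal feeding. Whole liver was measured, so fewer cells of a type and less RNA per cell cannot be told apart. The p-values measure the spread between pools, and the number of arrays limits their precision.

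Long-chain fatty acids reach the liver bound to albumin or are released from circulating triglyceride. CD36 helps them into the cell, and the SLC27 proteins, also called FATPs, take them up and many of them join the fatty acid to coenzyme A. Inside the cell the small FABP proteins hold the fatty acid in a barrel-shaped pocket and carry it to the places where it is oxidised, stored or built into lipoproteins. Fabp1, the liver form, and Cd36 are known targets of nuclear receptors that sense fatty acids. SIRT1 is an NAD-dependent deacetylase that acts on several regulators of lipid metabolism.

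The probes read short stretches of these mRNAs, and some of them are printed here as letters. They were not aligned to each other and no coding position was assigned to them, so they do not measure how alike the family members are. The first set is 1 probe for each of 3 transporters, printed as the files give it, with capitals on the longest run of bases that all of them share, which is 5 bases long.
Slc27a2, the first probe: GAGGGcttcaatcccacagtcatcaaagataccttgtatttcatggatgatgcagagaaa
Slc27a4, the first probe: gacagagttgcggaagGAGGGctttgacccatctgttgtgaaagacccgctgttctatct
Slc27a5: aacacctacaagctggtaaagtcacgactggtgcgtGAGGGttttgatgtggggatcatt
The second set is 3 probes of binding proteins, shown because the differences of Fabp4 and Fabp2 had opposite signs. For the Fabp2 probe printed here the Control and LKO values overlapped.
Fabp4, the second probe: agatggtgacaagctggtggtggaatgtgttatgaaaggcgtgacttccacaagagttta
Fabp4, the third probe: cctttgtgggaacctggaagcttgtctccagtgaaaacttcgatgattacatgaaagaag
Fabp2, the second probe: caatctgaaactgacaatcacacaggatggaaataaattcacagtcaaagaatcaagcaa
Over 127 pairs of probes from different genes of the set, the longest run of identical bases was 10, far below the probe length. Runs of 10 occurred across the families, as for Slc27a5 with Fabp4, and within them, as for Fabp2 with Fabp7. Likeness of the probes to other transcripts was not tested.

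Values below are log2 of the processed spot intensity minus the 75th percentile of the same array, so that 0 is that percentile, and they are given for pools 1, 2 and 3 in that order. A level is compared only with the level of the same probe in another pool, since probes differ in brightness for reasons other than RNA. Probes of 1 gene are numbered by their mean level over the 6 arrays, the first being the highest. A difference is LKO minus Control, with the standard error (SE), the 95% interval and the adjusted p of limma over all 23591 tested probes, and the threshold is an adjusted p of 0.05.

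Before the results, 3 facts about the arrays bear on them. The 3 Control arrays shared 1 slide, LKO pools 1 and 2 shared another and LKO pool 3 lay on yet another, so no slide held both genotypes, and slide and genotype cannot be told apart. The authors' deposited value table equalled the scanner intensity within 1% for 99.8% of the probes in each of 5 samples but for 0.853% of the probes in LKO pool 3, and the array of that pool had the highest 75th percentile (1289 against 1005 to 1056 intensity units). Results are therefore given from the scanner files, then with the table's values for that pool and with the pool left out. One Sirt1 probe read 0.30 ± 0.06 (SD, n = 3) in the controls and 0.06 ± 0.12 in the LKO pools, a difference of -0.24 (SE 0.10, adjusted p = 0.243), and the other differed by -0.02 (adjusted p = 0.941). The sources used here do not say whether either probe lies in the deleted part.

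None of the 15 tested probes passed the threshold in either direction, where 0.0636% of all tested probes did (15 of 23591, 1 higher and 14 lower). At an unadjusted p under 0.05 limma gave 6 of 15 probes, 2 higher and 4 lower, where 21.2% of all tested probes had such a p. The groups did not overlap for 7 of 15 probes, beside 28.8% of all tested probes. Of these 7 probes, 4 had every LKO value above every Control value (14.9% of all tested probes) and 3 had every LKO value below (13.9%). Probes of 1 gene are not independent, and 3 of the 4 probes above the controls are of Fabp4. By gene, all tested probes had a positive difference for Slc27a1, Slc27a2, Fabp1 and Fabp4 and a negative one for Cd36, Slc27a4, Slc27a5, Fabp2 and Fabp7, except that with a normexp background Fabp1 and 1 probe each of Slc27a2 and Slc27a4 had the other sign, and that Fabp7 was positive without Control pool 1. The median difference of the 15 probes was -0.09, beside 0.02 over all tested probes. The smallest adjusted p of the set was 0.132.

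**Figure D1:**
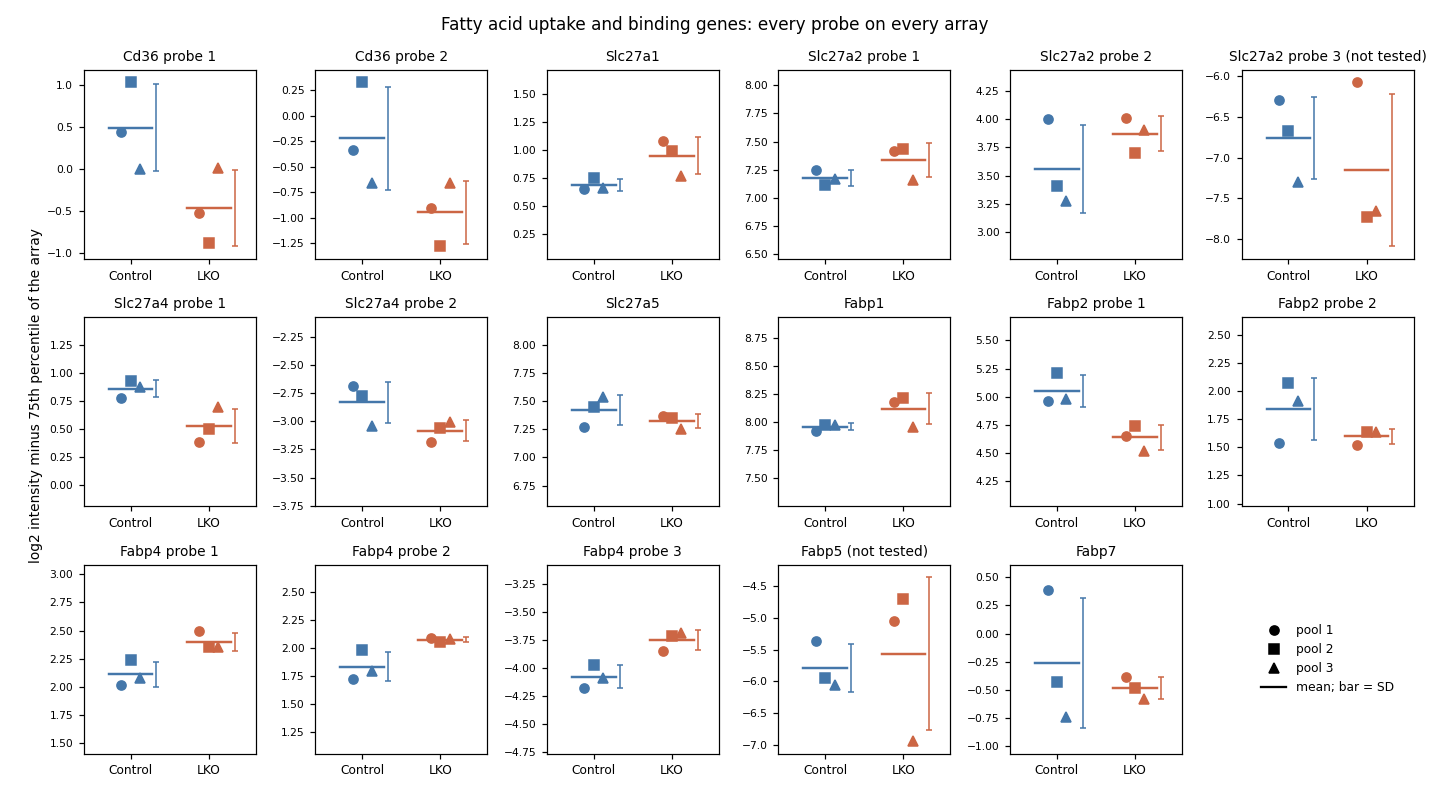
Level of each of the 17 probes on each array, as log2 intensity minus the array's 75th percentile, with Control in blue and LKO in red, 1 point per pool, a line at the mean and a bar of 1 SD. Each panel has its own vertical range. The LKO points lie wholly above the Control points for Slc27a1 and all 3 Fabp4 probes, and wholly below them for the second Cd36 probe, the first Slc27a4 probe and the first Fabp2 probe.

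Cd36 encodes the membrane glycoprotein that binds long-chain fatty acids and oxidised lipoproteins. Its first probe, whose 60 bases are spread over 2433 bases of the minus strand at chr5:16796811-16799243 (mm7, as the files give it), read 0.44, 1.03 and 0.00 in the Control pools and -0.52, -0.88 and 0.01 in the LKO pools. LKO pools 1 and 2 were below every control, while LKO pool 3 stood level with Control pool 3, so the groups overlapped. The difference was -0.95 (SE 0.32, 95% interval -1.72 to -0.19, adjusted p = 0.169), which is 1.94-fold lower. It was the most negative difference of the set, and 1.12% of all tested probes had a lower one.

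The second Cd36 probe (chr5:16796301-16796360, minus strand) read -0.34, 0.33 and -0.65 in the Control pools and -0.90, -1.28 and -0.66 in the LKO pools. Its LKO values were all below its Control values, but pool 3 of both groups stood almost level here too. The difference was -0.73 (SE 0.28, 95% interval -1.40 to -0.06, adjusted p = 0.210). The spread among the controls was wide for this gene, with an SD of 0.51 for the first probe and 0.50 for the second. Both probes ranked the 6 pools alike at the ends, with Control pool 2 the highest and LKO pool 2 the lowest.

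The Cd36 differences depended on single pools in both directions. In the value table that pool read -0.46 on the first probe in place of 0.01 and -0.81 on the second in place of -0.66. The differences were then -1.11 (adjusted p = 0.0778) and -0.78 (adjusted p = 0.137), with both probes wholly below the controls. Without that pool they were -1.19 (adjusted p = 0.0817) and -0.87 (adjusted p = 0.137). Without Control pool 2, the highest control, they were smaller, at -0.69 and -0.45, and without LKO pool 2 they were -0.75 and -0.56. Neither probe passed the threshold in any of these cases.

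Of the SLC27 transporters, Slc27a2 and Slc27a5 encode the main liver forms, FATP2 and FATP5. Slc27a2 encodes a protein that also activates very long-chain fatty acids, and its first probe, printed above (chr2:126328667-126328726), read 7.25, 7.11 and 7.17 in the controls and 7.42, 7.43 and 7.16 in the LKO pools. LKO pools 1 and 2 were above all controls and pool 3 among them. The difference was 0.16 (SE 0.11, 95% interval -0.11 to 0.43, adjusted p = 0.443), -0.15 with a normexp background, where the direction turned, and 0.25 without LKO pool 3.

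The second Slc27a2 probe (chr2:126305532-126305591) read 4.00, 3.40 and 3.27 in the controls and 4.01, 3.70 and 3.90 in the LKO pools. Control pool 1 was as high as the LKO pools, so the groups overlapped. The difference was 0.31 (SE 0.21, 95% interval -0.18 to 0.81, adjusted p = 0.418), and it was 0.12 with the value table, in which LKO pool 3 read 3.32. Without Control pool 1 it was 0.53 (adjusted p = 0.157), and without Control pool 3 it was 0.17. Another probe under this gene name lies on the opposite strand (chr2:126262207-126262266) and was well above background on none of the 6 arrays. It read between -7.30 and -6.29 in the controls and between -7.73 and -6.07 in the LKO pools, and it was not tested.

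Slc27a5 encodes the transporter that also joins bile acids to coenzyme A. Its probe (chr7:11575156-11575215, minus strand) read 7.27, 7.45 and 7.54 in the controls and 7.37, 7.35 and 7.26 in the LKO pools. The values overlapped, and the difference was -0.09 (SE 0.11, 95% interval -0.35 to 0.16, adjusted p = 0.643). It was -0.33 with a normexp background (adjusted p = 0.825) and -0.02 with the value table, and it lay between -0.17 (without Control pool 1) and -0.03 (without Control pool 3) when 1 pool was left out, with -0.06 without LKO pool 3. The interval spans 0, which does not show that the groups are equal.

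Slc27a1 encodes FATP1, a form best known from muscle and fat. Its probe (chr8:70053519-70053578) read 0.66, 0.75 and 0.66 in the controls and 1.08, 0.996 and 0.77 in the LKO pools. All LKO values were above all controls, LKO pool 3 only just. The difference was 0.26 (SE 0.11, 95% interval -0.01 to 0.53, adjusted p = 0.252), which is 1.20-fold higher, and 0.35 without LKO pool 3 (adjusted p = 0.0761).

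Slc27a4 encodes FATP4, a broadly expressed form. Its first probe, printed above (chr2:29822906-29822965), read 0.77, 0.93 and 0.87 in the controls and 0.39, 0.50 and 0.69 in the LKO pools. All LKO values were below all controls, and LKO pool 3 was again the closest to them. The difference was -0.33 (SE 0.11, 95% interval -0.60 to -0.06, adjusted p = 0.175), which is 1.26-fold lower.

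The second Slc27a4 probe (chr2:29824195-29824255) read -2.69, -2.78 and -3.04 in the controls and -3.18, -3.06 and -3.01 in the LKO pools. Its groups overlapped through Control pool 3 and LKO pool 3, and the difference was -0.25 (SE 0.12, 95% interval -0.54 to 0.05, adjusted p = 0.296). With a normexp background it was 0.0054, so its direction did not hold. With the value table the first probe differed by -0.37 (adjusted p = 0.0779), and without LKO pool 3 by -0.41 (adjusted p = 0.0654).

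**Figure D2:**
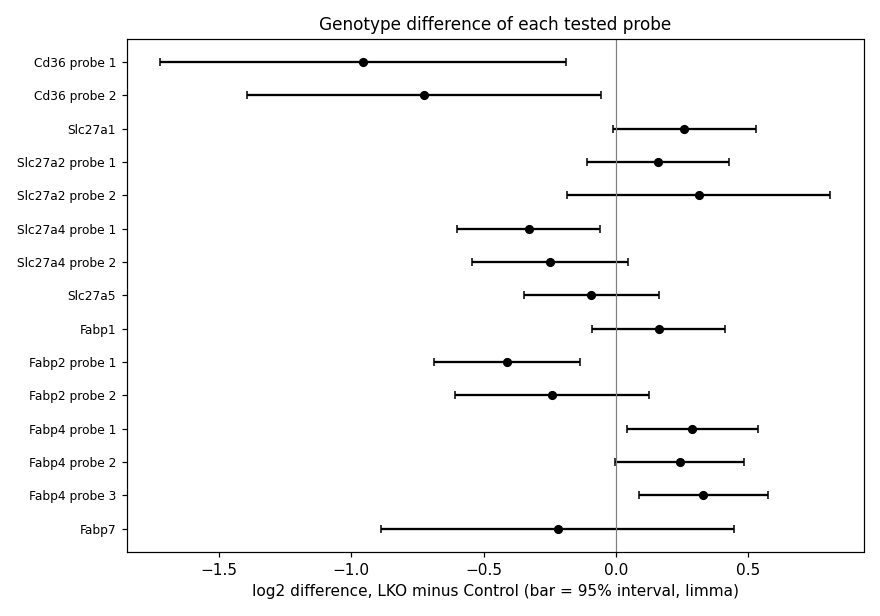
Genotype difference (LKO minus Control, log2) of each of the 15 tested probes, with bars for the 95% interval of limma. The intervals exclude 0 for both Cd36 probes, the first Slc27a4 probe, the first Fabp2 probe and the first and the third Fabp4 probe, none of which passed an adjusted p of 0.05. With a normexp background the first Slc27a2 probe, the second Slc27a4 probe and Fabp1 had the other sign, as did Fabp7 without Control pool 1.

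Fabp1 encodes the liver fatty acid binding protein, one of the most abundant proteins of the hepatocyte cytosol. Its probe (chr6:71222913-71222972) read 7.92, 7.98 and 7.97 in the controls and 8.18, 8.22 and 7.96 in the LKO pools. The controls had an SD of 0.03 (n = 3), LKO pools 1 and 2 were above them, and LKO pool 3 was among them. The difference was 0.16 (SE 0.10, 95% interval -0.09 to 0.41, adjusted p = 0.409).

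The source of LKO pool 3 mattered for this gene. The value table holds 8.50 for that pool where the scanner file holds 7.96. With the table the LKO pools lay wholly above the controls and the difference was 0.34 (adjusted p = 0.120), and without the pool it was 0.24 (adjusted p = 0.121). With a normexp background it was -0.0066, so the direction was not kept.

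Fabp4 encodes the adipocyte fatty acid binding protein, which macrophages and capillary endothelium also make. It has 3 probes, all on the minus strand of chromosome 3, and the LKO pools were above the controls on each. The first (chr3:10212636-10212696) read 2.02, 2.24 and 2.07 in the controls and 2.49, 2.35 and 2.35 in the LKO pools, a difference of 0.29 (SE 0.10, 95% interval 0.04 to 0.54, adjusted p = 0.187).

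The second Fabp4 probe, whose 60 bases are spread over chr3:10212718-10213447, read 1.73, 1.98 and 1.79 in the controls and 2.09, 2.05 and 2.08 in the LKO pools, a difference of 0.24 (SE 0.10, adjusted p = 0.238). The third (chr3:10216627-10216686) read -4.17, -3.97 and -4.09 in the controls and -3.85, -3.72 and -3.68 in the LKO pools, a difference of 0.33 (SE 0.10, 95% interval 0.08 to 0.57, adjusted p = 0.151). The probes share 1 gene and the same RNA, so they are not independent of each other. Their folds of 1.22, 1.18 and 1.26 are close, although they read the mRNA at different places. The third probe was dim, at 57 to 100 intensity units. Its SE was 0.16 with a trended robust variance (limma adjusted p = 0.283) and 0.45 with a normexp background (adjusted p = 0.954). With the value table the differences were 0.41, 0.33 and 0.36, with adjusted p of 0.107, 0.151 and 0.103.

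Fabp2 encodes the intestinal fatty acid binding protein. Its first probe (chr3:122738629-122738688) read 4.96, 5.21 and 4.98 in the controls and 4.65, 4.74 and 4.52 in the LKO pools. Every LKO value was below every control, including LKO pool 3. The difference was -0.41 (SE 0.12, 95% interval -0.69 to -0.14), or 1.33-fold lower, with an unadjusted p of 0.0102 and an adjusted p of 0.132, the smallest of the set. With a normexp background it was -0.63 (adjusted p = 0.720).

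The second Fabp2 probe, printed above (chr3:122736043-122736102), read 1.54, 2.07 and 1.91 in the controls and 1.52, 1.64 and 1.64 in the LKO pools. Control pool 1 lay within the LKO values, so the groups overlapped. The difference was -0.24 (SE 0.15, 95% interval -0.61 to 0.12, adjusted p = 0.397). It was -0.39 without Control pool 1 and -0.13 without Control pool 2. With the value table the probes differed by -0.35 (adjusted p = 0.100) and -0.34 (adjusted p = 0.234).

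Fabp7, which encodes the brain form, read 0.38, -0.43 and -0.74 in the controls and -0.38, -0.48 and -0.58 in the LKO pools (chr10:57609720-57609779). Control pool 1 stood apart and the groups overlapped. The difference was -0.22 (SE 0.28, 95% interval -0.89 to 0.45, adjusted p = 0.681), 0.10 without Control pool 1, -0.46 without Control pool 3 and -0.01 with the value table.

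Fabp5, the epidermal form, was not tested. Its probe (chr3:10022040-10022099) was well above background on no Control array and on 2 of the 3 LKO arrays. It read -5.35, -5.95 and -6.06 in the controls and -5.05, -4.71 and -6.94 in the LKO pools. LKO pools 1 and 2 were above the controls and pool 3 was the lowest of all. The value table holds -4.72 for LKO pool 3, and with it the LKO values lay wholly above the controls. In the scanner files the LKO mean of -5.56 was below the Control floor of -4.99, so no fold is given. The floor is the mean over the Control arrays of the lowest level well above background, or the probe's own where higher. That LKO mean rests on the scanner value of LKO pool 3, and the probe was tested with neither source.

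**Figure D3:**
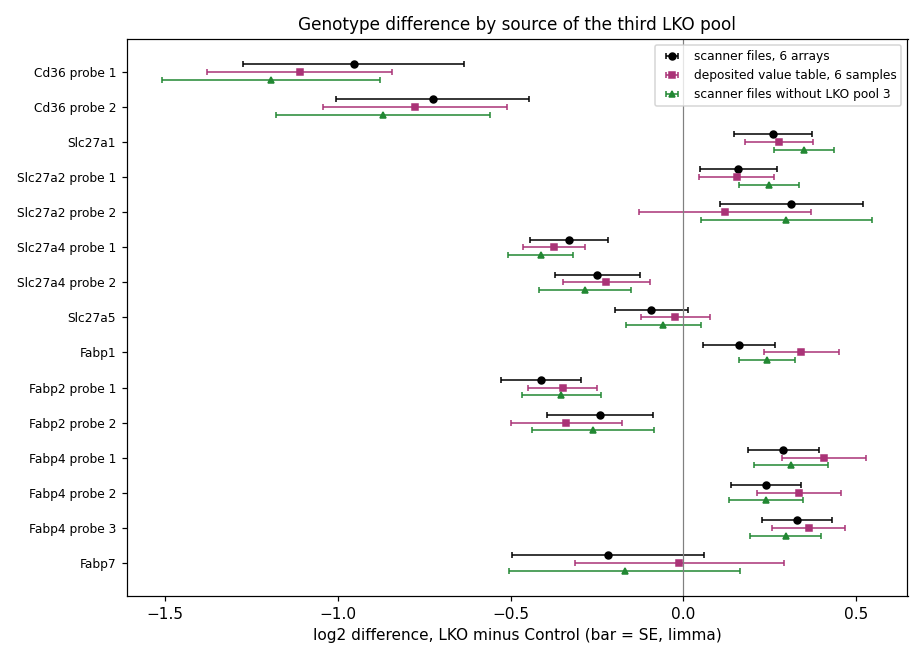
Genotype difference (LKO minus Control, log2, bars of 1 SE) of each tested probe from the scanner files (black), with the deposited value table (purple) and without LKO pool 3 (green). The 3 sources gave each probe the same sign. Fabp1 moved from 0.16 to 0.34 with the table, the second Slc27a2 probe from 0.31 to 0.12, and both Cd36 probes were more negative with the table and without the pool.

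Across all probes, the value table had 1.31% of tested probes past the threshold (308 of 23591), and leaving out LKO pool 3 had 2.96% (698). No member probe was among them in either case. At an unadjusted p under 0.05 the members had 9 of 15 probes with the table and also 9 of 15 without the pool, 5 higher and 4 lower in both. Of all tested probes, 26.3% had such a p with the table and 30.6% without the pool. With the table the LKO values lay wholly above the controls for Slc27a1, Fabp1, the 3 Fabp4 probes and the untested Fabp5 probe, and wholly below for both Cd36 probes, the first Slc27a4 probe and the first Fabp2 probe.

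Among all tested probes, 62% had a difference between -0.25 and 0.25, and the 5th and 95th percentiles were -0.542 and 0.586. The Cd36 differences lay below the 5th percentile and those of the other 13 tested probes of the set lay between these percentiles.

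**Figure D4:**
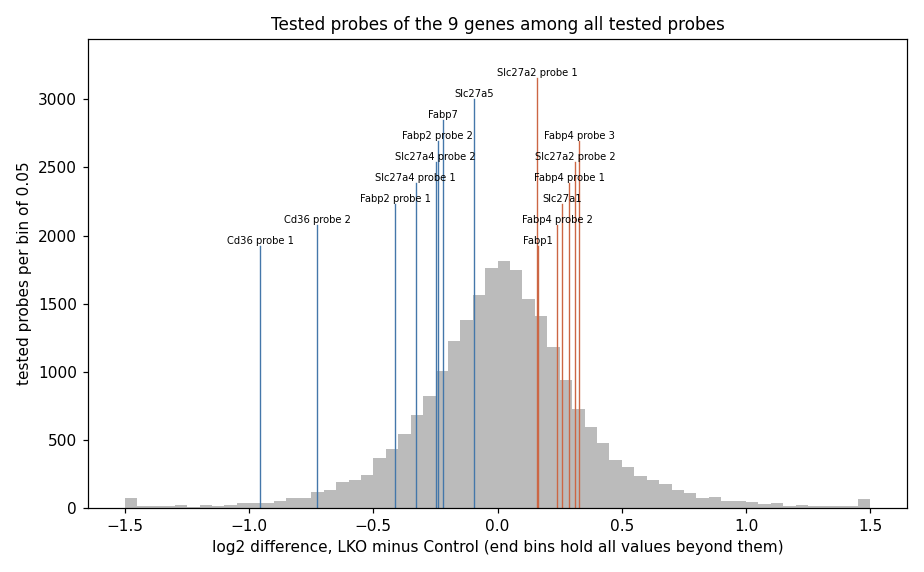
Histogram of the genotype difference (LKO minus Control, log2) of all 23591 tested probes in bins of 0.05, with a line for each tested probe of the 9 genes, blue below 0 and red above 0. The line of the first Cd36 probe at -0.95 and that of the second at -0.73 lie in the lower tail, and the lines of the others lie within the body of the distribution. Line heights only keep the names apart, and the signs of Fabp1, the first Slc27a2 probe and the second Slc27a4 probe turn with a normexp background, as does that of Fabp7 without Control pool 1.

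The promoters of the set were searched for a direct repeat, AGGTCA, then any 1 base (N), then AGGTCA again, the element that PPAR-alpha binds together with RXR, because the series concerns that receptor. RefSeq windows of 250 bases before to 50 after the start (GRCm38.p6) were given for 7 of the 10 genes, in 9 windows. With up to 2 mismatches on either strand, 3.86% of 32851 windows of that length held a match, and 2 of the 9 windows did. The stretches of these 2 windows, which are those of Fabp1 and Cd36, are shown because they held a match, with the matched bases in capitals.
Fabp1, chr6:71199772-71199864, plus strand: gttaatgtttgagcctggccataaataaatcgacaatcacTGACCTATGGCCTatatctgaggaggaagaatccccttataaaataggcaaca
Cd36, chr5:17835907-17835999, minus strand: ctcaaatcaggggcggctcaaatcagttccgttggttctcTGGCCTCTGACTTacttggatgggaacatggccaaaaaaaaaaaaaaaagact
The Fabp1 match has 1 mismatch and starts at position -67 from the gene start, and the Cd36 match has 2 and starts at -63, both on the reverse strand. A match describes letters and shows no binding. The first Cd36 probe differed by -0.95 and the Fabp1 probe by 0.16, neither past the threshold. Fabp4, Fabp5 and Slc27a5 were not matched to a window.

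Other genes of fatty acid release, uptake, activation and binding, and receptors that act on them, were described as a list of 43, of which 34 genes had 47 tested probes. None passed the threshold. At an unadjusted p under 0.05 limma gave 10 of 47 probes (21.3%), near the 21.2% of all tested probes with such a p. All 10 had lower LKO values. In the same 10 the LKO values lay wholly below the controls, which is 21.3% of the probes, beside 13.9% of all tested probes. In either direction 28.8% of all tested probes did not overlap. No probe of the list lay wholly above the controls, where 14.9% of all tested probes did. Of the 47 probes 21 had a higher and 26 a lower LKO mean, with a median difference of -0.08.

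Lpl encodes lipoprotein lipase, which releases fatty acids from circulating triglyceride, and its first probe had the smallest adjusted p of the list. It read 1.01, 1.16 and 1.12 in the controls and 0.03, 0.45 and -0.22 in the LKO pools, so every LKO pool was below every control. The difference was -1.01 (SE 0.18, adjusted p = 0.0792). Leaving out LKO pool 3 gave -0.86 (adjusted p = 0.0512). The value table holds 1.49 for that pool, above all controls, and with it the groups overlapped and the difference was -0.44 (adjusted p = 0.460). The other Lpl probe differed by -0.49 with overlapping groups (adjusted p = 0.328), by -0.20 without LKO pool 3 and by 0.07 with the table, so its direction did not hold.

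Cav1 and Cav2 encode caveolins, coat proteins of membrane pits that are rich in endothelium and fat cells. A Cav1 probe read 0.05, -0.15 and 0.25 in the controls and -0.74, -0.95 and -0.52 in the LKO pools, a difference of -0.78 (SE 0.16, adjusted p = 0.0878). The other Cav1 probe, with 1 LKO array missing, differed by 1.48 the other way (SE 0.81, adjusted p = 0.347). That value rests on LKO pool 2, which read -1.94, while LKO pool 1 at -4.77 lay among the controls (-5.05 to -4.44). Without LKO pool 2 it was 0.06, and with the value table, which holds -6.40 for LKO pool 3, it was 0.46 (adjusted p = 0.808). Cav2 read -2.32, -2.28 and -2.13 in the controls and -2.82, -2.92 and -2.62 in the LKO pools, a difference of -0.55 (SE 0.12, adjusted p = 0.0958).

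With the value table the first of these Cav1 probes passed the threshold (difference -0.93, adjusted p = 0.0487). Without LKO pool 3, Cav2 (-0.63) and Hnf4a, which encodes a nuclear receptor of hepatocyte identity (-0.56), passed with an adjusted p of 0.0492 each. With all pools from the scanner files that Hnf4a probe differed by -0.44 (adjusted p = 0.133). The other Hnf4a probes differed by -0.23 (adjusted p = 0.289) and -0.08 (adjusted p = 0.706), both with overlapping groups. Fabp3, which encodes the heart form of the binding proteins, differed by -0.37 (adjusted p = 0.147). With a normexp background the Fabp3 difference was 0.13 (adjusted p = 0.963), so its direction did not hold.

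**Figure D5:**
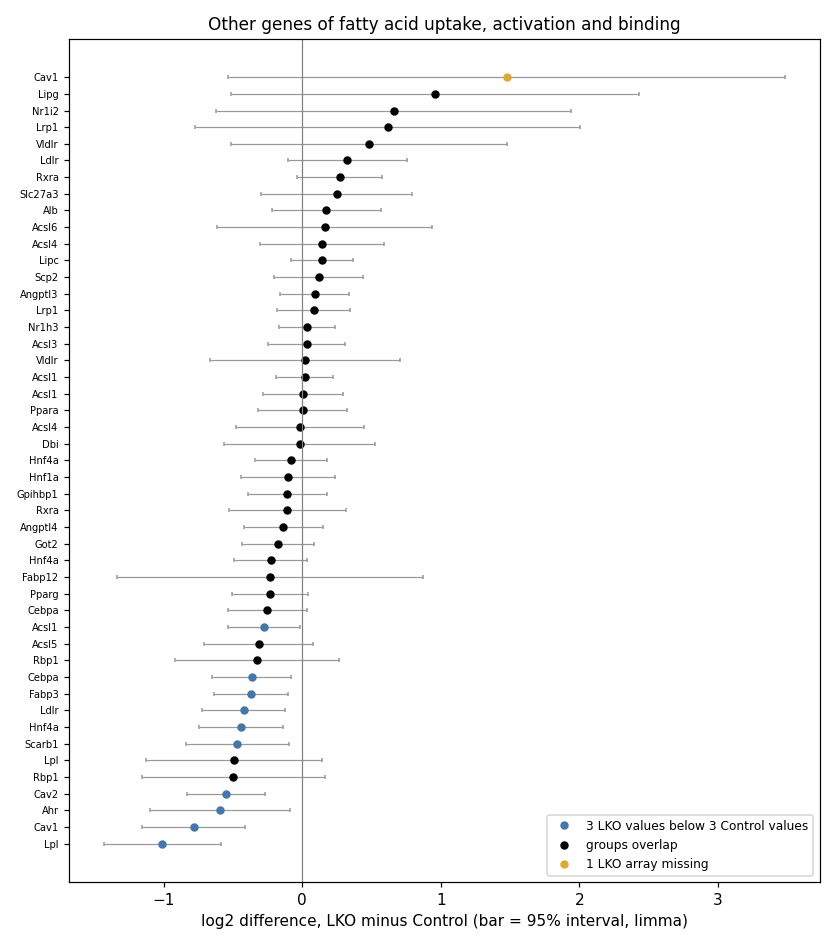
Genotype difference (LKO minus Control, log2, bars for the 95% interval of limma) of the 47 tested probes of the other genes of fatty acid uptake, activation and binding, 1 line per probe. The 10 probes in blue, led by Lpl at -1.01 and Cav1 at -0.78, had all LKO values below all Control values in the scanner files, though not for Lpl with the value table. Of all tested probes 13.9% lay wholly below the controls and 28.8% did not overlap in either direction. The probe in yellow is the other Cav1 probe with 1 LKO array missing.

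Several members are better known from other cells, so markers of those cells were read beside them. All 17 probes of 10 hepatocyte markers were tested, with a median difference of -0.01, and their summed level (log2) was 10.9 to 11.2 in the controls and 11.02 to 11.2 in the LKO pools.

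Beside Fabp4, 5 probes of 4 of the 9 adipocyte marker genes were tested. Of these probes 1 was higher and 4 were lower in the LKO means, with a median difference of -0.36. Their summed level was 1.24 to 2.09 in the controls and 1.37 to 2.59 in the LKO pools. The defining fat cell markers Lep and Plin1 were well above background on no array, and Adipoq on 1 of 3 in each group. The extremes of the list were Cfd at -3.44 (adjusted p = 0.114) and Slc2a4 at 2.42 (adjusted p = 0.187). For LKO pool 3 the scanner file holds -6.23 for Cfd and -1.76 for Slc2a4, and the value table -3.99 and 1.82. The size of both differences therefore depends on the source of that pool. Cfd was well above background on 2 of the 3 LKO arrays.

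Macrophages also make Fabp4 and Cd36, and of the 14 probes of 10 macrophage markers 2 were higher and 12 lower in the LKO means, with a median difference of -0.22. Their summed level was 6.14 to 6.86 in the controls and 6.30 to 6.57 in the LKO pools. In the value table LKO pool 3 was higher than in the scanner file on every one of these probes. It read 5.90 in place of 4.70 for Cd5l and 4.45 in place of 3.34 for Clec4f, both above every control. The count of lower macrophage probes therefore depends on the source of that pool. For endothelium, 7 of 13 tested probes were higher and 6 lower, with a median of 0.02 and a summed level of 4.52 to 4.81 against 4.47 to 4.78. No marker probe passed the threshold, and the part of these cells in the Cd36, Fabp4, Lpl and caveolin values was not tested.

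Beside Fabp2, the intestinal markers Cdh17, Cdx2, Krt20, Lct and Muc2 were well above background on no array, while the Fabp2 probes were so on all 6. Only Alpi and Vil1 were tested, with 3 probes of which 1 was higher and 2 were lower. Their summed level was -1.69 to -1.43 in the controls and -2.04 to -1.45 in the LKO pools.

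The genes whose levels over the 6 arrays were most like those of the first Fabp2 probe were Olfr1048 (Pearson r = 0.992), Abcb4 (0.991), Sdcbp2 (0.990), Stom (0.990) and Ddah1 (0.990). These are the 5 highest among tested probes of other genes with a symbol and are given as a description, since the arrays share slides and genotype. They were chosen for likeness to the member probe of smallest p, over the same arrays. Their lower LKO values follow from that choice. Abcb4, which encodes the phospholipid exporter of the bile canaliculus, differed by -0.22, and Ddah1, which encodes an enzyme that breaks down methylated arginine, by -1.47 (adjusted p = 0.0791).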

How the data were processed

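RNA of 3 Control and 3 LKO pools was read on 1-colour Agilent arrays. The scanner files hold spot intensity, which the submitters' processing notes credit to Agilent Feature Extraction 9.5. Per the file headers, no local background was subtracted from the processed intensity, while a fitted spatial surface was subtracted and a multiplicative trend removed within each array. The other values used are the 0 or 1 flags deposited in the scanner files for spots that are well above background, saturated or outliers. The authors' value table, made with an error model of Rosetta Resolver per the labels, gives a linear intensity for each probe and sample. Its columns had medians of 74.5, 62.5 and 62.9 (Control pools 1 to 3) and of 62.0, 62.5 and 62.6 (LKO pools 1 to 3). In 5 samples it was neither centred nor scaled, and for LKO pool 3 the sources used here do not say what was done.

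Control spots were dropped, outlier spots set missing, and repeated spots of a probe averaged as log2 values. Each array was scaled by subtracting its 75th percentile. Testing was limited to probes that were well above background on the 3 arrays of 1 group or both. The difference was fitted per probe with limma 3.58.1 (lmFit and eBayes, with genotype as the single term, two-sided) under R 4.3.3, and p-values were adjusted by Benjamini-Hochberg, with a threshold of 0.05. The fit was run on simulated data with independent noise and no slide effect, which cannot test whether slide rather than genotype lies behind a difference. Groups and replicate numbers come from the sample titles. Members and lists were chosen with earlier results of these data known. Named are all members, the 3 companion genes with the smallest p, companions past the threshold under an alternative, markers as counts with their defining genes, Sirt1, and the 5 probes most correlated with the member probe of smallest p. Fabp3, Cfd and Slc2a4 were singled out after their values were seen. Accessions matched to the RefSeq table (GRCm38.p6) named 22951 of 41174 probes and renamed 5141. Probe coordinates are the files' own (mm7), and without a genome no exon is named. Alternatives were other backgrounds, scalings, filters, variance settings, blocks, the value table and each pool left out.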

Additional observations from a re-analysis of the deposited data

How the results depend on the processing

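No member probe passed the limma threshold under any of the 16 alternatives, and 230 member values kept their sign. The 4 that turned were the first Slc27a2 probe (-0.15), Fabp1 (-0.0066) and the second Slc27a4 probe (0.0054) with a normexp background (offset 50), and Fabp7 (0.10) without Control replicate 1; the cause was not tested. Leaving out 1 pool moved Fabp7 between -0.46 and 0.10. The replicate block, a paired fit on the replicate number, gave 0 member calls. The sample titles give these numbers and name no pairing. Deviations of pools with the same number correlated at 0.009, -0.043 and -0.093, and Control pool 3 correlated best with LKO pool 2 (0.129). Deviations from a mean of 3 pools sum to 0 within each group, so these correlations cannot decide whether pools were paired.

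Over all probes the main count was 15. It was 0 with normexp (1568 at an unadjusted p under 0.05 in limma), 0 without a filter (6859), 0 with slide as a random block (2632, correlation 0.313) and 0 with the replicate block (4367). It was 49 for probes above background on all arrays, 24 with 1 probe per gene, 91 with a trended robust variance and 308 with the value table. Leaving out 1 pool gave 0 to 698, and only LKO pool 3 gave more than 0 (the other 5 gave 3188 to 4492 at an unadjusted p). Companion calls numbered 1 with the value table and 0 to 2 when 1 pool was left out. The median of all probes was 0.02, 0.09 with normexp, -0.10 without a filter and 0.00 with quantile scaling. Signal over background limits Fabp5 and the third Slc27a2 probe, which were not tested.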
